A study of Rattus norvegicus with 10 samples.

Results

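The genes described here encode enzymes of the tricarboxylic acid (citrate) cycle together with the E1 alpha subunit of the pyruvate dehydrogenase complex, in white adipose tissue of rats. They are Pdha1, Cs, Idh2, Idh3a, Idh3b, Ogdh, Suclg1, Mdh2 and Mdh1. Every probe set whose platform annotation gave 1 of these symbols and no other was taken, which gave 14 probe sets for 9 genes, of 31042 probe sets and 14217 genes on the array. The study compared 5 male rats fed a diet with instant noodle at 30% of its weight and 26% of its energy as fat (the noodle group) with 5 male rats fed that diet without its seasonings (the control group). All 10 rats were 13 weeks old, the labels name no strain, and intake was matched between the groups at about 60 g per kg body weight daily. Feeding lasted 30 days in 1 field of the labels and 4 weeks in another. Each rat gave 1 array of its own, and rats are named here by group and number (noodle 1, 4, 7, 10 and 13; control 2, 5, 8, 11 and 14), the numbers being shared by no pair.

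Pyruvate made from glucose enters the mitochondrion and is converted to acetyl-CoA by the pyruvate dehydrogenase complex, whose E1 alpha subunit carries the sites that kinases phosphorylate to switch it off. Citrate synthase joins acetyl-CoA to oxaloacetate, and the cycle then oxidises citrate stepwise, passing electrons to the respiratory chain. In white adipocytes citrate is also exported as the carbon source of fatty acids, and cytosolic and mitochondrial malate dehydrogenases move reducing equivalents between the compartments.

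Of the 14 probe sets, 9 were variable and 5 were flat, flat meaning an SD of 0.01 or less over the 10 arrays on the log2 scale of the deposited values. The variable ones belong to 6 genes (Pdha1 with 2, Cs with 2, Mdh1 with 2, Idh2, Idh3b and Mdh2). Idh3a, Ogdh and Suclg1 were measured by flat probe sets alone, and Cs had 2 flat probe sets besides its variable ones. Across the whole array 28435 of 31042 probe sets (91.6%) were flat. A difference on this scale is that of the deposited values. Where differences of several probe sets are set side by side below, that is a description of the deposited values.

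The tissue label was checked against marker genes, because the labels name brain in their account of RNA extraction while the tissue field gives white adipose tissue. Of 10 adipocyte markers 9 were measured, 0 of them below the median probe set of the array, with Adipoq at 12.68. Of 9 measured brain markers 8 lay below that median, and the exception was Mbp at 8.76. In bulk tissue such as this, fewer cells of a type and less RNA per cell cannot be told apart. The difference between the 3' and 5' control probe sets of Actb and Gapdh, a measure of RNA degradation, was 0.84 ± 0.07 (SD, n = 5) in the noodle group and 0.95 ± 0.08 (SD, n = 5) in the control group (2-sided exact permutation p = 0.0476).

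The promoters of 4 members are shown, picked by the co-variation described further on. Mdh1, Pdha1 and Idh3b followed each other most closely over the 10 rats, and Idh2 followed them least. Each line gives the 250 bases before the annotated start, 5′ to 3′ on the gene's strand, from RefSeq on build GRCr8, with matches to CCAAT or to its reverse complement ATTGG, and to GGGCGG or its reverse complement CCGCCC, in capitals. The windows are chr14:99847228-99847477 (minus strand) for Mdh1, chrX:38508908-38509157 (plus strand) for Pdha1, chr3:137939991-137940240 (minus strand) for Idh3b and chr1:143467249-143467498 (minus strand) for Idh2.
Mdh1: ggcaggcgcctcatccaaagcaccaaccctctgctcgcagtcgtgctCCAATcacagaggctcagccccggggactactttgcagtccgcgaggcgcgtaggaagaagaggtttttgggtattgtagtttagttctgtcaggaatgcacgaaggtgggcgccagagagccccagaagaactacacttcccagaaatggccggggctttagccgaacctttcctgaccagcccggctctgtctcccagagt
Pdha1: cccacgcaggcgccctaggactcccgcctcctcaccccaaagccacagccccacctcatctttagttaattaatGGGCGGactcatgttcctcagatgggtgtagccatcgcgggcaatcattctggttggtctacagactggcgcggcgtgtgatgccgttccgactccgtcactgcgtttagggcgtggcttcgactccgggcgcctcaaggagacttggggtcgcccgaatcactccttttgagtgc
Idh3b: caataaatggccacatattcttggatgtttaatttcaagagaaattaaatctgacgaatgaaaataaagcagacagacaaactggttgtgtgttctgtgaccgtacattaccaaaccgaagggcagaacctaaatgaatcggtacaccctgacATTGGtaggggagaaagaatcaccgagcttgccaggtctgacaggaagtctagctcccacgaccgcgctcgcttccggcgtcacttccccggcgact
Idh2: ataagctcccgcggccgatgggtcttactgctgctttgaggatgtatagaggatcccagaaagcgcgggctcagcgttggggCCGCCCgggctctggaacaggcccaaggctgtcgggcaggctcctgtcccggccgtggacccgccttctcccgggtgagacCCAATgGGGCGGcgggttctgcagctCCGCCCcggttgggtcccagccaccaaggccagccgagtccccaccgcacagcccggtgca
The closely matched trio share no capitalised motif: Mdh1 and Idh3b each hold 1 CCAAT match and no GGGCGG, and Pdha1 holds 1 GGGCGG and no CCAAT. Idh2 holds 1 CCAAT match and 3 GGGCGG matches. A match is a run of letters in the window and not a measured binding site.

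Of the 9 members, 8 have a RefSeq promoter entry, and the motif search covered 300 bases of each, from 250 before to 50 after the start, on both strands. CCAAT was in 6 of the 8 (Idh2, Idh3b, Suclg1, Cs, Ogdh and Mdh1), against 37.5% of all 33469 promoters and 36.8% of those of genes on the array. GGGCGG was in 5 of the 8 (Idh2, Cs, Mdh2, Ogdh and Pdha1), against 33.1% and 55.7%. TATAAA was in 0 of the 8, in 14.2% of all promoters and in 8.46% of those of genes on the array. AAGGTCA, the letters that estrogen-related receptors bind, was in 0 of the 8, against 4.61% and 3.31%. GCATGCGC, the core bound by nuclear respiratory factor NRF1, was in 0 of the 8, against 2.47% and 4.18%. The GC content of the 250 upstream bases ranged from 47.2% in Idh3b to 68.8% in Idh2, with a median of 59.4% against 51.2% over all promoters. The median for genes on the array alone was not computed.

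Neither diet group stood apart in any member gene. The noodle and control groups overlapped in all 14 member probe sets, and the differences between group means of the 9 variable ones lay between -0.05 and 0.13 on the log2 scale. The test was limma's moderated comparison of the groups across all 31042 probe sets with Benjamini-Hochberg adjustment at 0.05. It called 0 of the 14 (0% of all probe sets were called), and 0 of the 14 had an unadjusted p under 0.05, against 4.77% of all probe sets and 8.13% of variable ones. Groups that did not overlap were found in 0 of the 9 variable member probe sets and in 0.959% of all variable probe sets. The genes are taken below in the order of their reactions.

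Pdha1 was read by the variable probe sets 1371380_at and 1383698_at. On the first, the noodle rats 1, 4, 7, 10 and 13 gave log2 values of 10.74, 10.35, 10.54, 10.51 and 10.73, and the control rats 2, 5, 8, 11 and 14 gave 10.32, 10.82, 10.48, 10.49 and 10.52. Control 5 was the highest rat and control 2 the lowest, so the control group held the whole spread of this probe set. The group means were 10.57 ± 0.16 (SD, n = 5) for noodle and 10.53 ± 0.18 (SD, n = 5) for control, a difference of 0.05 ± 0.11 (SE; 95% interval -0.20 to 0.29; limma adjusted p = 0.997). On the second, noodle rats ranged from 9.03 to 9.69 and control rats from 8.98 to 9.57, a difference of 0.13 ± 0.16 (SE; 95% interval -0.23 to 0.49). Here noodle 1 and noodle 13 lay above every control rat. The upper bound of that interval, a 1.40-fold higher value in the noodle group, was the highest among the members. The pair of Pdha1 probe sets followed each other, with a Pearson r of 0.939 over the 10 rats.

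Cs, citrate synthase, was read by 4 probe sets. On 1369967_at the noodle rats in the same order gave 9.28, 8.84, 9.19, 9.01 and 9.38, and the control rats gave 9.01, 9.21, 9.10, 8.80 and 8.98. Noodle 13 and noodle 1 lay above every control rat, while noodle 4 lay below all control rats but control 11. The difference was 0.12 ± 0.11 (SE; 95% interval -0.14 to 0.38; limma adjusted p = 0.993), the lowest unadjusted p of the members at 0.323 in that fit. The variable probe set 1384201_at, with noodle rats from 8.80 to 9.15 and control rats from 8.91 to 9.17, gave 0.05 ± 0.08 (SE). Both variable probe sets followed each other (r = 0.910), and the flat probe set 1375295_at, which spanned 10.7641 to 10.7644 in all, followed them with r = 0.90 and 0.908. The other flat one, 1396453_at, was at 5.84 and followed them less closely (r = 0.461 and 0.665).

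Isocitrate dehydrogenase was measured as the NADP-dependent mitochondrial enzyme Idh2 and as subunits of the NAD-dependent enzyme, the catalytic Idh3a and the accessory Idh3b. Idh2 gave 9.46, 9.26, 9.80, 9.52 and 9.65 in the noodle rats and 9.03, 9.81, 9.57, 9.51 and 9.35 in the control rats. Its highest pair of rats, control 5 and noodle 7, came from different groups, and control 2 was lowest. The difference was 0.09 ± 0.15 (SE; 95% interval -0.26 to 0.43), and it was -0.02 without control 2. Idh3b gave 9.73, 9.39, 9.67, 9.67 and 9.81 in the noodle rats and 9.40, 9.75, 9.55, 9.51 and 9.70 in the control rats. Of the noodle rats, 4 of 5 were at 9.67 or above and noodle 4 was the lowest rat of all. The difference was 0.07 ± 0.09 (SE; 95% interval -0.14 to 0.28). Idh3a was flat at 8.07, with an SD of 0.0016 over the 10 arrays, the widest of the 5 flat member probe sets.

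Ogdh, the E1 subunit of the 2-oxoglutarate dehydrogenase complex, and Suclg1, the alpha subunit of succinyl-CoA ligase, were flat at 10.11 and 10.13. Their values spanned 0.0020 and 0.0005 log2 units over the 10 rats. Of the 5 flat member probe sets 3 had a higher and 2 a lower noodle mean, and no size is read from them.

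Mdh2, mitochondrial malate dehydrogenase, closes the cycle. It gave 10.15, 9.88, 10.07, 10.12 and 10.28 in the noodle rats and 10.07, 10.19, 9.91, 9.96 and 9.997 in the control rats. Noodle 13 was highest and noodle 4 lowest, so here the noodle group held the whole spread. The difference was 0.07 ± 0.08 (SE; 95% interval -0.11 to 0.25), the narrowest interval of the 9 variable member probe sets. Mdh1, the cytosolic enzyme, gave 12.19, 11.88, 12.04, 12.07 and 12.26 in the noodle rats and 11.88, 12.28, 12.07, 11.92 and 12.11 in the control rats on 1367653_a_at. Each group held 1 rat at 11.88 and 1 rat at 12.26 or above, and the group means of 12.09 ± 0.15 and 12.05 ± 0.16 (SD, n = 5 each) differed by 0.03 ± 0.09 (SE). On 1372790_at the noodle rats ranged from 9.13 to 9.66 and the control rats from 9.23 to 9.97, a difference of -0.05 ± 0.16 (SE; 95% interval -0.42 to 0.31). That was the 1 variable member probe set with a lower noodle mean, although it followed the first over the rats (Pearson r = 0.947).

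**Figure D1:**
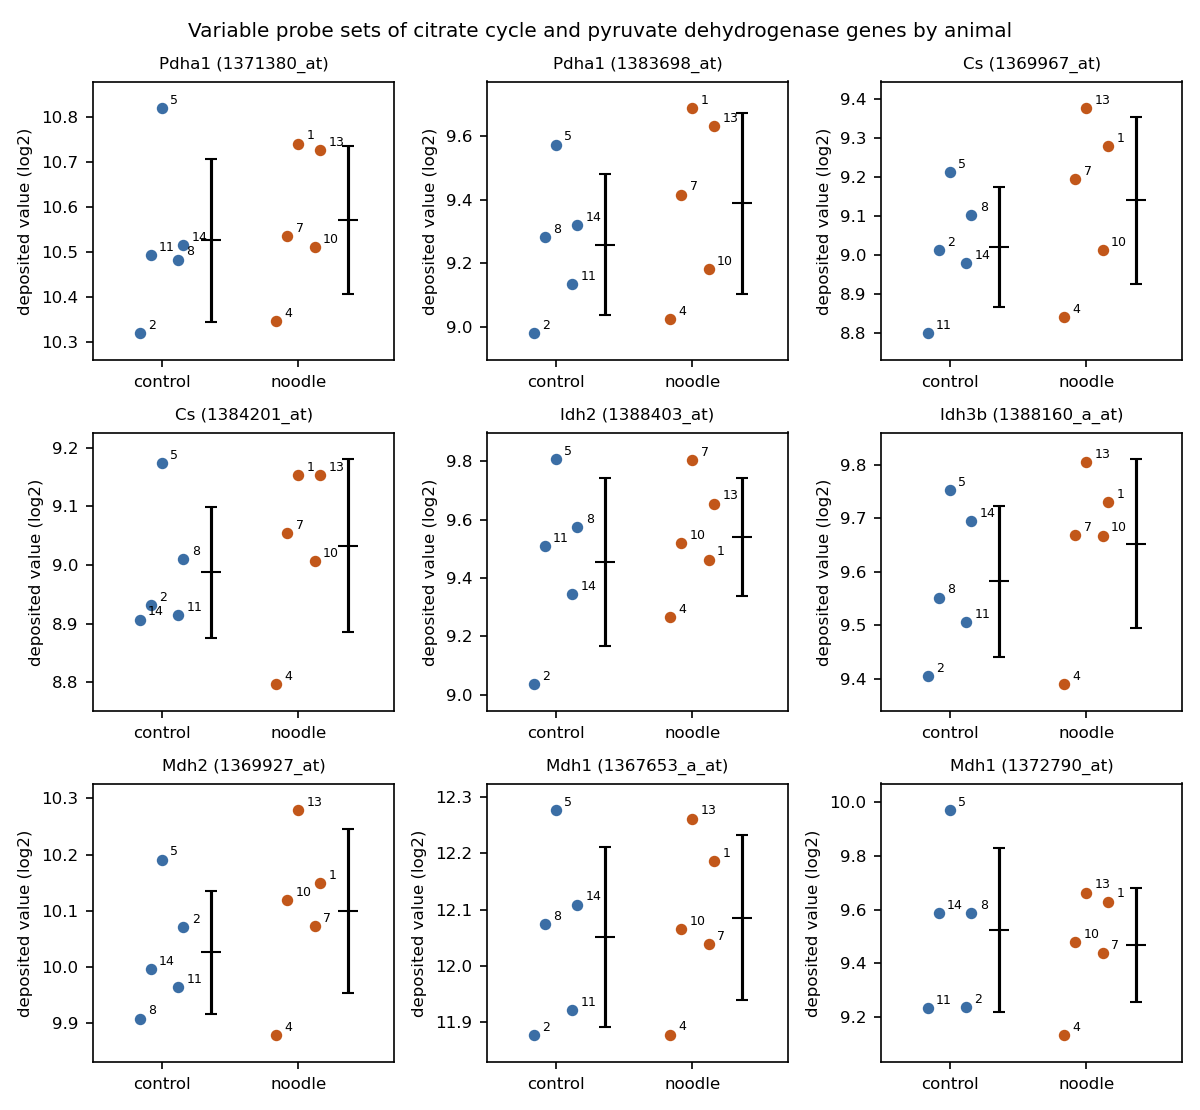
Deposited log2 value of each rat for the 9 variable probe sets, 1 panel each with its own axis. Points are rats with their number, and the bars are group means ± SD (n = 5); the groups overlap in every panel, with noodle 4 and control 2 low and control 5, noodle 1 and noodle 13 high in most.

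Set side by side, 8 of the 9 variable member probe sets had a higher mean in the noodle group, with a median difference of 0.07. Over all 2607 variable probe sets 1162 were higher and 1445 lower, with a median of -0.01. With 1 probe set per gene, that of the highest mean, 5 of 5 variable member genes were higher in the noodle group. Without control 2 that count was 2 of 5, and the differences of Idh2, Pdha1 1371380_at and Mdh1 1367653_a_at were -0.02, -0.01 and -0.01. Mdh1 1367653_a_at was also at -0.01 without noodle 13, and Mdh1 1372790_at was at 0.03 without noodle 4 and 0.06 without control 5. The diets accounted for 1.31% to 11.4% of the variance of the variable member probe sets, with a median of 3.69% against 7.64% over all variable probe sets. The group difference was 0.206 to 0.642 of the SD within groups. The 95% intervals differed in width between probe sets. That of Mdh1 1372790_at reached down to 0.747-fold and that of Pdha1 1383698_at up to 1.40-fold, while that of Mdh2 ran from 0.929-fold to 1.19-fold. With the 3' to 5' difference of the arrays as a covariate, some differences were nearer to 0. Idh3b was at 0.015 in place of 0.070, Pdha1 1383698_at at 0.040 in place of 0.130, Cs 1369967_at at 0.062 in place of 0.120 and Mdh1 1367653_a_at at 0.0080 in place of 0.034. The difference of Idh2 was larger with it, at 0.122 in place of 0.087. So were those of Cs 1384201_at, at 0.054 in place of 0.046, and Pdha1 1371380_at, at 0.050 in place of 0.046. Mdh2 was at 0.070 in place of 0.074, and Mdh1 1372790_at at -0.045 in place of -0.054.

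**Figure D2:**
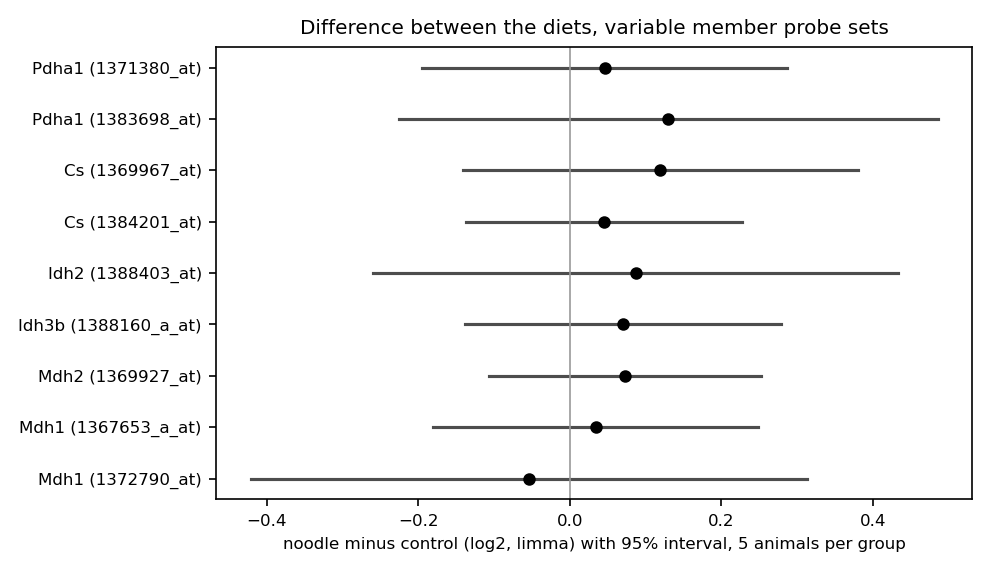
Noodle minus control difference (log2) of the 9 variable member probe sets, with points for limma's estimate and lines for the 95% interval (5 rats per group). Each interval holds 0, and 8 of 9 estimates lie between 0.03 and 0.13.

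Within both groups the rats differed. The values of a variable member probe set spanned 0.38 to 0.84 log2 units between the lowest and the highest rat, which is 1.30-fold to 1.79-fold. Control 5 was the highest rat in 5 of the 9 variable member probe sets, noodle 13 in 3 and noodle 1 in 1. Noodle 4 and control 2 were each the lowest in 4, and control 11 in 1. Each gene was then put on a common scale by subtracting its mean and dividing by its SD, and the mean over Pdha1, Idh2, Idh3b, Mdh2 and Mdh1 was taken (Cs is left out of it because its highest probe set is flat). That mean was 1.26 in control 5, 1.21 in noodle 13, 0.66 in noodle 1, 0.29 in noodle 7 and 0.13 in noodle 10. It was -0.11 in control 14, -0.34 in control 8, -0.57 in control 11, -1.21 in control 2 and -1.31 in noodle 4. Each diet group thus held a rat near the top and a rat near the bottom. Control 5 and noodle 13 stood somewhat above the other rats, and control 2 and noodle 4 below them.

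**Figure D3:**
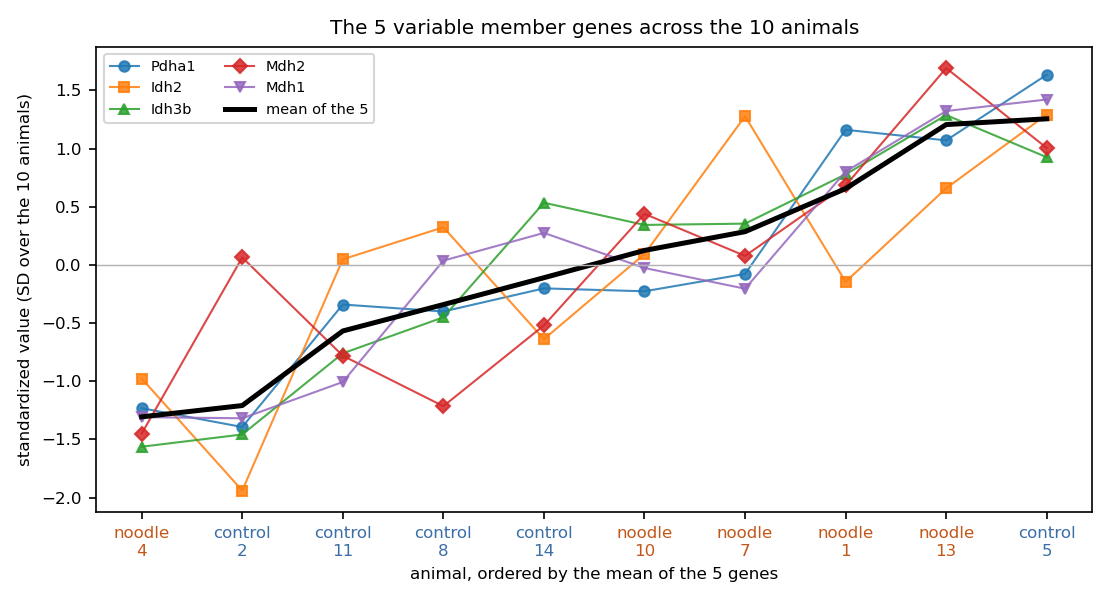
Standardized value (SD over the 10 rats) of Pdha1, Idh2, Idh3b, Mdh2 and Mdh1, with rats ordered by the mean of the 5 genes (black line). The mean runs from -1.31 in noodle 4 to 1.26 in control 5, and Idh2 (orange) departs from it most.

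The member genes varied together over the 10 rats. The median Pearson r over the 10 pairs of these 5 genes was 0.739, and 9 of 10 pairs passed a 2-sided permutation test with 100000 resamples and Benjamini-Hochberg adjustment over the pairs at 0.05. Idh3b and Mdh1 were the closest pair (r = 0.936, rho = 0.927, permutation p = 7e-05, adjusted 0.0007). Mdh1 and Pdha1 followed (r = 0.935, rho = 0.867, permutation p = 0.00047, adjusted 0.00235), then Idh3b and Pdha1 (r = 0.886, rho = 0.927, permutation p = 0.00072, adjusted 0.0024). The trio thus joins the first enzyme on the way into the cycle, a subunit of an enzyme inside it and a cytosolic enzyme outside the mitochondrion. Mdh2 came next, with r = 0.762 to Idh3b (rho = 0.842, permutation p = 0.0119), 0.744 to Pdha1 (rho = 0.794, permutation p = 0.0143) and 0.733 to Mdh1 (rho = 0.685, permutation p = 0.0171), each with an adjusted p of 0.0285.

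Idh2 was the loosest member. Its r was 0.713 with Pdha1 (rho = 0.661, permutation p = 0.0200, adjusted 0.0286), 0.694 with Idh3b (rho = 0.624, permutation p = 0.0253, adjusted 0.0317) and 0.661 with Mdh1 (rho = 0.612, permutation p = 0.0364, adjusted 0.0404). With Mdh2 it was 0.405 (rho = 0.527, permutation p = 0.247). With any 1 rat left out, the lowest r of Idh2 with Pdha1, Idh3b and Mdh1 was 0.595, 0.549 and 0.533. These relations were weaker without both control 2 and control 5, the 2 rats farthest from the Idh2 median. Leaving those rats out also narrows the range of Idh2, so it cannot show that the relations rest on them. Without that pair of rats r was 0.413, 0.476 and 0.365 (permutation p of 0.306, 0.232 and 0.381). With Mdh2 it was 0.488 without them (permutation p = 0.221).

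Leaving out the 2 rats farthest from the median of the first gene of each pair left 4 of 10 pairs past the threshold, which were Idh3b with Mdh1 (r = 0.883), Idh3b with Mdh2 (0.889), Mdh1 with Pdha1 (0.888) and Mdh1 with Mdh2 (0.818). Idh3b with Pdha1 was at 0.772 (permutation p = 0.0291, adjusted 0.0582) without control 2 and noodle 4, and it lay between 0.849 and 0.918 when any 1 rat was left out. Mdh2 with Pdha1 was at 0.614 (permutation p = 0.105, adjusted 0.175) without noodle 13 and noodle 4. By Spearman's rho 5 of 10 pairs passed. The number passing was 3 when noodle 4, noodle 13 or control 5 alone was left out, with a median r of 0.668, 0.691 and 0.697. It was 6 without control 2, with a median r of 0.844, and 8 or 9 without any other rat. With the diet means removed from each gene the median r was again 0.739, and 9 pairs passed. Over all 1330896 pairs of the 1632 genes whose highest probe set was variable the median r was 0.04, and 3.41% of those pairs were at or above the median of the members. At or above the lowest r of the members (0.405) were 21.2% of them. The share of those pairs that would pass the permutation test was not computed. Adding Cs through its variable probe set with the highest SD, and choosing Pdha1 and Mdh1 in that way too, gave 11 of 15 pairs past the threshold. In that set Cs followed Pdha1 most closely (r = 0.866, rho = 0.842, permutation p = 0.00175) and Idh2 least (r = 0.536, rho = 0.612, permutation p = 0.110).

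Each probe set was also set against the mean of the standardized variable members of other genes, as a description. The 9 variable member probe sets had r from 0.661 to 0.932 with it. The 5 flat ones were all positive as well, in spite of their narrow range: 0.851 for Cs 1375295_at, 0.669 for Idh3a, 0.618 for Suclg1, 0.589 for Ogdh and 0.505 for Cs 1396453_at. Among the other flat probe sets of the array outside the pathway the median r was 0.02, and 8.29% were at 0.5 or above. Of the 27 flat probe sets of the other pathway genes taken up below, 8 were at 0.5 or above, with r from -0.569 to 0.912. Idh3a, Ogdh and Suclg1, flat on the deposited scale, thus had a positive r with the variable members. Whether their small ranges carry a signal was not tested.

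Other genes of the pathway came from a list of 46, of which 40 were on the array, with 56 probe sets, 29 of them variable in 23 genes. limma called 0 of the 56 at an adjusted p under 0.05. An unadjusted p under 0.05 was found in 4, against 4.77% of all probe sets and 8.13% of variable ones. These 4 were 2 of the 29 variable and 2 of the 27 flat probe sets. Both probe sets of Sdhaf2, an assembly factor of succinate dehydrogenase, were among these 4, at -0.26 ± 0.10 (SE; 1373492_at) and -0.08 ± 0.03 (SE; 1376422_at), each with a limma adjusted p of 0.993. The others were flat probe sets of Pck2, the mitochondrial phosphoenolpyruvate carboxykinase, and Got2, the mitochondrial aspartate aminotransferase. Of the 29 variable probe sets 18 had a higher and 11 a lower noodle mean, with a median of 0.02. Acly, the ATP citrate lyase that splits exported citrate, had the highest difference at 0.46 ± 0.31 (SE; limma adjusted p = 0.993), with noodle rats at 9.93 ± 0.63 and control rats at 9.47 ± 0.36 (SD, n = 5 each). Noodle 1, at 10.89, was the highest rat, and the difference was 0.22 ± 0.24 (SE) without it.

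Of the same 29 variable probe sets, 21 had an r of 0.5 or above with the mean of the variable members, against 15.2% of variable probe sets outside the pathway. Other subunits of the members' own complexes spanned a wide range. Idh3g, the partner of Idh3a and Idh3b, was at 0.944, and Pdhx and Pdhb, which stand beside Pdha1 in the pyruvate dehydrogenase complex, were at 0.909 and 0.883. Dld, the E3 subunit shared by both dehydrogenase complexes, was at 0.598. The succinyl-CoA ligase partners of Suclg1 were flat, with Sucla2 at 0.277 and 0.747 and Suclg2 at 0.623. Dlst, of the same complex as Ogdh, was also flat, at 0.819. Of succinate dehydrogenase, Sdha was at 0.920, Sdhb at 0.915, Sdhd at 0.824 and 0.555 and the flat Sdhc at 0.836. Its assembly factor Sdhaf1 was at 0.297 and Sdhaf2 at 0.426 and -0.03. With the diet means removed Sdhaf2 was at 0.769 and 0.181 and Sdhaf1 at 0.249. Idh1, the cytosolic counterpart of Idh2, was at 0.460.

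The transporters that bring pyruvate into the mitochondrion also followed the members, with Mpc1 at 0.903 and Mpc2 at 0.891. Pyruvate carboxylase (Pc), which makes oxaloacetate, was at 0.759. Of the routes that carry citrate and malate carbon towards fat, the malic enzyme Me1 was at 0.789 and 0.737, Acly at 0.601, the citrate carrier Slc25a1 at 0.546 and the dicarboxylate carrier Slc25a10 at 0.826 and 0.654. The mitochondrial malic enzyme Me2 was at 0.07. Among the regulators of pyruvate dehydrogenase, the kinases Pdk1 (0.822 and 0.773) and Pdk2 (0.734) followed the members, and the phosphatase Pdp2 was at 0.623 but at a rho of 0.309. The kinase Pdk4, which fasting and fatty acids induce, was at -0.10 and -0.22 (rho of 0.042 and 0.079), and Pck1, an enzyme of gluconeogenesis and glyceroneogenesis, was at -0.33.

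**Figure D4:**
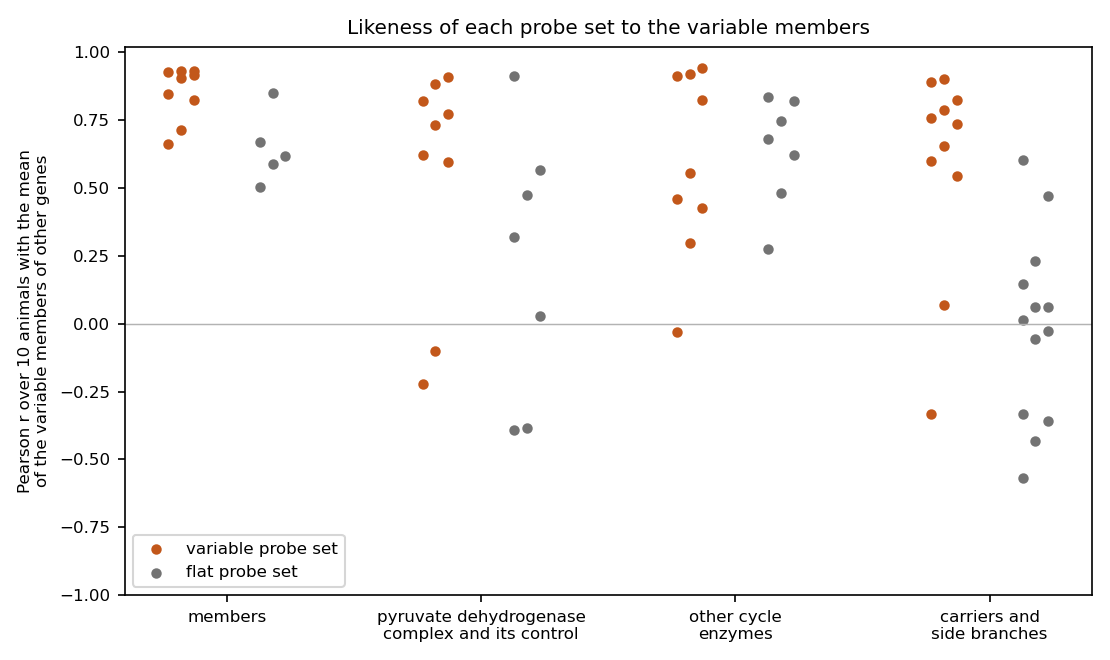
Pearson r over the 10 rats of each pathway probe set with the mean of the standardized variable members of other genes, by role, with variable probe sets in orange and flat ones in grey. All 14 member probe sets lie above 0.5, and the 29 other variable probe sets run from -0.33 (Pck1) to 0.944 (Idh3g).

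Among 1604 further genes with a variable highest probe set, the 8 closest to the mean of the 5 member genes were named by that likeness, with no test. They were Ndufab1 (r = 0.956), an acyl carrier protein and complex I subunit, Gcat (0.951), a mitochondrial enzyme of glycine and threonine metabolism, and Slc2a4 (0.941), the insulin-regulated glucose transporter GLUT4. Next came Ndufs1 (0.938), a complex I subunit, Apoo (0.932), a protein of the inner membrane organising complex, and Echs1 (0.928), an enzyme of fatty acid oxidation. Pygl (0.926), a glycogen phosphorylase, and Ghitm (0.922), a protein of the inner mitochondrial membrane, closed the 8. limma called 0 of these 8 between the diets, with differences from 0.00067 for Gcat to 0.13 for Slc2a4. With the diet means removed their r lay between 0.917 and 0.976.

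Markers of other cells that adipose tissue can hold were followed beside these results. The summed level of 13 skeletal muscle markers had r = 0.671 with the mean of the 5 member genes, which is that of Myh1 (r = 0.670), the 1 variable marker of the list. The other 12 were flat, 8 of them had a negative r (Tnnc2 at -0.544) and 4 a positive one (Mb at 0.533). Of the 13, 9 were below the median probe set. Sums ran from 79.11 to 79.60 in noodle rats and from 79.26 to 79.64 in control rats. The sum of 9 brown adipocyte markers had r = 0.520, 7 of them lay below the median probe set, and Ucp1, which defines brown fat, was at 5.91. Those sums ran from 56.9 to 59.95 in noodle rats and from 56.7 to 59.1 in control rats. The part of these markers in the co-variation of the members was not tested. The sum of 9 adipocyte markers had r = 0.277. Its 3 variable markers, Lep, Cfd and Lipe, were at 0.034, 0.213 and 0.162. All 6 flat ones had a negative r, from -0.136 for Adipoq to -0.596 for Fabp4. Macrophage markers were higher in the noodle mean in 12 of 12, with sums from 97.7 to 103.4 in noodle and 95.8 to 102.1 in control rats (2-sided exact permutation p = 0.198) and r = -0.09 with the members. Mesothelial markers were lower in 7 of 7, with sums from 43.7 to 48.9 and from 43.4 to 52.96 (exact permutation p = 0.349) and r = -0.04. Red blood cell markers were lower in 4 of 4, with sums from 33.6 to 34.9 and from 34.3 to 35.96 (exact permutation p = 0.0635) and r = 0.331. The flat probe sets of Tyrobp, a macrophage marker, and Slc4a1, a red blood cell marker, are in these counts for direction alone. The part of these lists in the differences of the members between the diets was not tested. The sum of 9 brain markers was at 0.482, which is that of Mbp (0.481), the 1 variable one. Of the 8 flat ones 3 had a negative r, among them Snap25 at -0.748, and 5 a positive one. The 3' to 5' difference had r = -0.192 with the members, and 9 of 10 pairs passed after it was regressed out of each gene. Of 7 regulators of mitochondrial biogenesis, 0 were variable, and their levels, Tfam at 8.04 and Ppargc1a at 5.93 among them, are not read for size.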

How the data were processed

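One expression array per rat was analysed, 5 noodle and 5 control, grouped by the diet field of the labels. The deposited table gives 1 log2 value per probe set and array, from 4.73 to 13.89, with array medians of 6.17 to 6.18. It was taken as log2 from that range, and its logarithm base, summarisation and normalization were not stated (not given in the sources used here). Biotin-labelled cRNA was made from 100 ng of total RNA, per the labels' protocols. Nothing in the labels says whether rats were housed together. The p-values treat the rats as independent, and any shared housing is not accounted for in them. The number of arrays limits the precision.

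The 57 array control probe sets were left out, and the other 31042 were fitted with limma 3.58.1 (R 4.3.3; lmFit and eBayes, 2-sided, Benjamini-Hochberg over all of them, threshold 0.05), tested on simulated data. Probe sets were named through the platform annotation (20826 with 1 symbol, 436 with several, 9780 with none), and 9 of 9 members matched the RefSeq GRCr8 gene table. Where 1 probe set stood for a gene it was the one with the highest mean. Correlations and their 100000 resamples over rats were computed with numpy 2.4.6, and rho with the mean of the members with scipy 1.17.1. The members, gene lists, marker lists and tests were chosen with earlier results of these data known. Named genes were all members, every other listed pathway gene with a variable probe set, and the 8 genes most like the members. Pck2, Got2 and the genes that ran against the members were named after their values were seen. Sucla2, Suclg2, Dlst and Sdhc, with flat probe sets alone, were named outside that rule as subunits of the complexes described. CCAAT and GGGCGG were searched after the first 3 motifs had been found in 0 members. Alternatives were quantile normalization, median centring, leaving out dim probe sets, a floor, other variance priors, array weights, a 3' to 5' covariate, variable probe sets alone, and leaving out each rat.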

Additional observations from a re-analysis of the deposited data

Results flagged for a closer look

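Of 96 groups of 5 rats examined (the variable probe sets of members and pathway, the marker sums, the 3' to 5' difference and the mean of the members, in each diet), 6 held a rat farther from the others than Dixon's 95% limit for 5 values, 0.71 of the group's range. Chance gives about 1 in 20, or 4.8 groups. No member probe set was among them. In the noodle group, noodle 4 was low in Sdha at 10.04 (the others 10.23 to 10.29) and in the summed red blood cell markers at 33.6 (the others 34.6 to 34.9), and noodle 13 was low in Pck1 at 11.69 (the others 12.13 to 12.29). In the control group, control 14 was low in Pck1 at 11.71 (the others 12.21 to 12.26). Control 5, the highest rat in the mean of the members, was high in Me1 1370067_at at 10.19 (the others 8.45 to 8.96) and in Slc25a10 1370020_at at 9.43 (the others 8.85 to 8.92).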

How the results depend on the processing

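No member probe set passed the threshold under any of the 19 alternatives. Of 171 recomputed differences of the 9 variable member probe sets, 7 changed sign, in 4 probe sets. With array weights Mdh1 1372790_at was at 0.036 in place of -0.05. Leaving out 1 rat at a time, Mdh1 1372790_at ran from -0.127 to 0.0574 (0.0302 without noodle 4), Mdh1 1367653_a_at from -0.00962 (without noodle 13; -0.00943 without control 2) to 0.0904, Idh2 from -0.0178 to 0.175 and Pdha1 1371380_at from -0.00555 to 0.119. The other 5 kept their sign, with Pdha1 1383698_at from 0.0557 to 0.221, Cs 1369967_at from 0.0611 to 0.195, Cs 1384201_at from 0.0154 to 0.105, Idh3b from 0.0260 to 0.136 and Mdh2 from 0.0288 to 0.129. Acly ran from 0.222 to 0.599 and Sdhaf2 1373492_at from -0.297 to -0.190. The number of variable member genes with a higher noodle mean ran from 2 (without control 2) to 5. Over all probe sets 0 passed, and 1 did without control 14 (range 0 to 1). Of the 10 pairs of member genes, 9 passed; 5 did by Spearman's rho, 4 without the 2 farthest rats, and 3 to 9 with 1 rat left out. Adding Cs (11 of 15 pairs), regressing out the 3' to 5' difference (9 of 10) and the alternatives for Acly and Sdhaf2 were chosen after seeing the data. The cause of these changes was not tested. No paired analysis was possible because the groups share no replicate numbers. Flat probe sets limit what can be read for Idh3a, Ogdh and Suclg1, and 5 arrays per group limit the rest.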

Other observations

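Some genes ran against the members over the 10 rats. They were picked after their values were seen, as the lowest Pearson r with the mean of the 5 member genes among 1604 candidates, and are given with no test. Sult1d1, a sulfotransferase, was lowest at -0.938, with values from 5.26 to 6.71 between rats. Csrp1, a cytoskeletal LIM domain protein, was at -0.901, Prss23, a secreted serine protease, at -0.893, and Nid1, a basement membrane protein, at -0.888. Ccn1, a matricellular protein, was at -0.869, Plpp3, a lipid phosphatase, at -0.863, and Rbm3, a cold-induced RNA binding protein, at -0.850. Cpt1a, which admits long-chain fatty acids to mitochondrial oxidation, was at -0.826, while Echs1 of that same pathway was at 0.928. limma called 0 of these 8 between the diets, the largest of their differences being -0.28 ± 0.18 (SE) for Ccn1.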
